A study of Mus musculus with 12 samples.

Results

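The comparison set 3 libraries of stressed Cav3.1 knockout (KO) mice against 3 libraries of stressed wild type (WT) mice, 6 of the 12 libraries of the series. Members were all genes of these 6 columns, and 15199 of 24411 symbols passed the filter on low counts. RNA came from the medial prefrontal cortex (mPFC) of adult females aged 8 to 12 weeks, all on the C57BL/6J background. Stress was a forced swim test or a tail suspension test of 5 min, once a day for 5 days. The other 6 libraries, 3 of WT and 3 of KO mice without stress, carry the same 2 genotypes and serve here as a separate set for the same genotype difference. WT mice were purchased from Clea Japan, and KO mice, a line described in earlier work, came from the RIKEN BRC as RBRC01465. Genotype and colony therefore cannot be told apart. Whether each library is a separate animal is not stated in the labels, so the p-values rest on the spread among libraries, which may be technical. The question was which genes differ in the mPFC between the genotypes once both have been stressed.

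Cacna1g encodes Cav3.1, the pore subunit of a T-type calcium channel. T-type channels open at voltages near the resting potential and inactivate within a short time, which lets neurons fire bursts after a hyperpolarisation. Cacna1h and Cacna1i encode the related channels Cav3.2 and Cav3.3. In the medial prefrontal cortex, acute and repeated stress act through corticosterone and the glucocorticoid receptor, through neuronal activity and through the translation control known as the integrated stress response, and each of these pathways has known target genes.

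Estimated counts summed to between 24269178 and 29830758 in stressed WT libraries and between 15469590 and 28022130 in stressed KO libraries. Markers of cortical excitatory neurons were present in all 6 libraries, with Slc17a7, the vesicular glutamate transporter, between 1746 and 1978 CPM (counts scaled by library depth). Library 1 of stressed KO stood apart: the summed level of the 19 striatal projection neuron markers was 1503 CPM there and between 590.4 and 656.8 CPM in the other 5 stressed libraries. Drd2, a dopamine receptor, stood at 14.3 CPM in that library and at 1.35 CPM or less in the others. Myelin markers were highest in stressed WT library 3 (sum of 25 genes, 4217 CPM) and stressed KO library 1 (3538 CPM), against 1758 to 2774 CPM in the other 4. Among the libraries without stress, WT libraries 1 and 2 held high olfactory bulb markers, summing to 1586 and 1585 CPM over 14 genes, against 71.2 to 272.5 CPM in the other 10 libraries. Results are therefore given with and without these libraries where they rest on them.

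Cacna1g stood at 128, 109.8 and 109 CPM in stressed WT libraries 1 to 3 and at 58.5, 65.95 and 57.6 CPM in stressed KO libraries 1 to 3. Every KO library lay below every WT library, at about 0.524 of the WT mean. The log2 fold change of KO over WT was -0.93 ± 0.09 (SE, n = 3 and 3), with an edgeR quasi-likelihood p of 5.2e-04 after Benjamini-Hochberg adjustment. It lies at chr11:94408391-94474198 on the minus strand (GRCm38, the build also called mm10). Counts per gene do not show which exons the remaining reads come from. In bulk RNA, fewer cells of a type and less RNA per cell cannot be told apart, here or for any gene below. Cacna1h, at 83.2, 59.4 and 58.5 CPM in WT and 71.4, 73.6 and 56.7 CPM in KO, overlapped between the groups (log2 0.01 ± 0.14, adjusted p = 0.991). Cacna1i stood at 173, 142 and 154 CPM in WT and 92.96, 141 and 119 CPM in KO. Its KO libraries were all below its WT libraries, but the difference did not pass (log2 -0.41 ± 0.14, adjusted p = 0.246). Thus Cacna1g alone of the 3 T-type genes passed the test, and neither of the others was called higher.

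**Figure D1:**
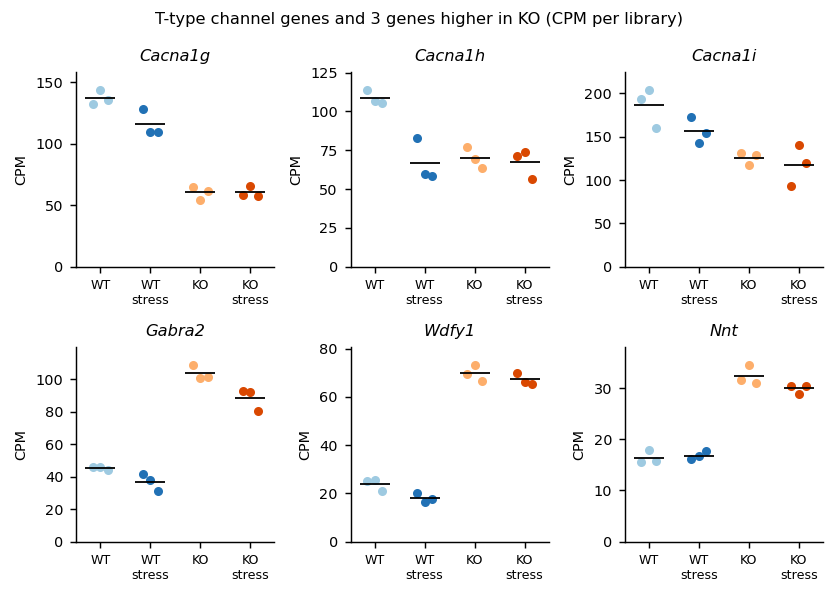
Normalised read counts (CPM, y axis) of 6 genes in each of the 12 libraries, by group (x axis), with 1 point per library and a bar at the group mean. The stressed KO libraries lie below the stressed WT libraries for Cacna1g (57.6 to 65.95 against 109.4 to 128 CPM) and above them for Gabra2, Wdfy1 and Nnt, with and without stress.

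Over all genes, 38 passed an adjusted p under 0.05 (0.250% of those tested), 13 higher (0.0855%) and 25 lower (0.164%) in stressed KO. An unadjusted p under 0.05 was found for 1973 genes (13.0%), 995 higher (6.55%) and 978 lower (6.43%). Groups did not overlap for 3358 genes (22.1%), KO being above WT for 1637 (10.8%) and below for 1721 (11.3%), and the 38 genes were all among them. The absolute log2 fold changes of the 38 ran from 0.34 to 7.43. The count was 25 without stressed KO library 1, 23 without stressed WT library 3, 19 without both (15 of them among the 38), and 82 without unstressed WT libraries 1 and 2 (35 of them among the 38). Leaving out each of the 12 libraries in turn, 17 of the 38 passed every time. Of tested genes, 6 of 904 were called on chromosome 4 (0.664%), 5 of 513 on chromosome 14 (0.975%) and 4 of 1104 on chromosome 7 (0.362%). At most 3 were called on any other chromosome, and 0.250% over all genes. On chromosomes 4, 14 and 7, 3, 4 and 4 of these called genes lay close together, in the windows described below.

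Many of the largest differences were in genes that have near-identical copies nearby. Short reads from stretches shared by the copies cannot be assigned to either, and the aligned stretches below show how few bases differ, so their values are uncertain gene by gene and are given as sums over the copies. The stretches are from the coding sequence (GENCODE mouse release 21 on GRCm38, bases 39 to 128 of 399 for the Ccl21 genes and 907 to 996 of 1512 for the Srp54 genes), written 5′ to 3′ with the bases that differ between copies in capitals.
Ccl21b (coding region chr4:42255767-42256429, plus strand): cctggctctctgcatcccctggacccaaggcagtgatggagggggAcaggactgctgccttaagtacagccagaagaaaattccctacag
Ccl21a (coding region chr4:42773256-42773918, minus strand): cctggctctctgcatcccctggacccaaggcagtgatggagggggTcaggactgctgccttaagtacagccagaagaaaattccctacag
Srp54b (coding region chr12:55164262-55187948, plus strand): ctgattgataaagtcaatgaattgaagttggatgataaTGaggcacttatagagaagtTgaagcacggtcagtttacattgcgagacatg
Srp54c (coding region chr12:55239326-55262215, plus strand): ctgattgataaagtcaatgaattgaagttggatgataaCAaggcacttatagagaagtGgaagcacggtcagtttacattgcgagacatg
Over the full coding sequence Ccl21b differs from Ccl21a at 2 of 399 positions (84 and 194, counted from the first coding base) and from the copies Gm10591 and Gm13304 at 0. Tmem254b matches Tmem254a and Tmem254c over all 387 bases, and Plac9b matches Plac9a over all 324. Srp54b matches Srp54a over all 1512 bases and differs from Srp54c at 6.

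Ccl21 encodes a chemokine that guides lymphocytes and dendritic cells through the receptor CCR7. Its copies on chromosome 4 summed to 36.7, 30.8 and 32.02 CPM in stressed WT libraries 1 to 3 and to 0.313, 0.579 and 0.64 CPM in stressed KO libraries. Nearly all reads of WT were assigned to Ccl21b, at 35.1, 28.5 and 27.5 CPM, and few of KO, at 0, 0.303 and 0.35 CPM (log2 -7.43 ± 0.61, adjusted p = 1.1e-04). Ccl21a, which can be told from Ccl21b at the capitals above, was low in both groups, at 0.299, 0.334 and 0.087 CPM in WT and 0.313, 0.276 and 0.29 CPM in KO. In the same stretch of chromosome 4, Fam205a2 fell (log2 -1.79 ± 0.18, adjusted p = 6.1e-04), and Fam205a copies summed to 43.3, 53.2 and 56.1 CPM in WT and 14.1, 14.9 and 15.3 CPM in KO. A gene model there, Gm3893, stood at 94.9, 109.6 and 143 CPM in WT and 7.97, 10.6 and 7.62 CPM in KO (log2 -3.73 ± 0.28). Between 41.8 and 42.8 Mb of chromosome 4, 3 of 13 tested genes passed (0.250% over all genes), all of them lower in KO, in a window drawn around them.

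On chromosome 14, between 25.7 and 26.4 Mb, 4 of 10 tested genes passed (0.250% over all genes) and all 4 fell, again in a window drawn around them. The Tmem254 copies, which encode a membrane protein, summed to 66.7, 86.1 and 80.7 CPM in stressed WT and 14.8, 15.5 and 16.3 CPM in stressed KO. For Tmem254b the log2 fold change was -2.32 ± 0.09 and the adjusted p 7.8e-08, the smallest of all genes. The copies of Plac9, named for expression in placenta, summed to 7.08, 6.08 and 6.96 CPM in WT and 1.29, 0.82 and 1.34 CPM in KO. Each KO library lay below each WT library for both families. The Srp54 copies, which encode a subunit of the signal recognition particle that brings secretory proteins to the endoplasmic reticulum, went the other way. Srp54b rose (log2 1.08 ± 0.15, adjusted p = 0.0092), with 26.2, 34.9 and 32.6 CPM in WT and 74.3, 56.2 and 67.2 CPM in KO. Summed over the 3 copies the levels were 199, 229 and 187 CPM in WT and 299.6, 238 and 246 CPM in KO, a ratio of 1.28, so the sum differed less than Srp54b alone. Without stressed KO library 1 and stressed WT library 3 the adjusted p of Srp54b was 0.131. The calls of Ccl21b, Fam205a2, Gm3893, Tmem254a, Tmem254b, Plac9a and Plac9b held without those 2 libraries and without any 1 of the 12.

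Wdfy1, a protein of early endosomes, stood at 20.1, 16.3 and 17.7 CPM in stressed WT libraries and 70.1, 66.1 and 65.5 CPM in stressed KO libraries. Every KO library lay above every WT library (log2 1.90 ± 0.10, adjusted p = 1.1e-06). Nnt encodes the transhydrogenase that supplies NADPH in mitochondria, and C57BL/6J mice are known for a deletion within it. It stood at 16.1, 16.7 and 17.7 CPM in WT and 30.5, 28.9 and 30.4 CPM in KO, with no overlap (log2 0.83 ± 0.08, adjusted p = 4.5e-04). The neighbour of Nnt on chromosome 13, Gm7120 (Tmem267 in RefSeq), begins 79.1 kb away and was lower in KO, at 35.5, 50.5 and 40.4 CPM in WT and 15.1, 17.1 and 24.5 CPM in KO (log2 -1.17 ± 0.19, adjusted p = 0.029). That call was lost without any 1 of stressed WT library 2 or 3, stressed KO library 1 or 2, or unstressed KO library 3, with adjusted p up to 0.15. Wdfy1 and Nnt belong to a list of genes reported to differ among C57BL/6 substrains. Of its 11 tested members 2 rose, 0 fell and 9 did not pass (0.0855% rose and 0.164% fell over all genes). The list's median log2 fold change was -0.04, against -0.00 over all genes tested. Crb1, a polarity gene known for a mutation of C57BL/6N mice, was the member with the next smallest p, at 1.85, 2.61 and 1.54 CPM in WT and 0.557, 0.771 and 0.32 CPM in KO (log2 -1.82 ± 0.42, adjusted p = 0.116). Its groups did not overlap. Ide, insulin-degrading enzyme, followed (log2 -0.24 ± 0.06, adjusted p = 0.116). The remaining 7 members had adjusted p of 0.581 or more. The calls of Wdfy1 and Nnt held without any 1 library.

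Gabra2, the α2 subunit of GABA-A receptors, rose. It stood at 41.7, 37.9 and 31.3 CPM in stressed WT and 92.9, 92.1 and 80.6 CPM in stressed KO (log2 1.26 ± 0.10, adjusted p = 7.9e-05). The groups did not overlap, and the call held without any 1 library.

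All 4 called genes of chromosome 7 lie in its last stretch, from Cfap46 (chr7:139600951-139683817) to Nadsyn1 (chr7:143795584-143822849). Mtg1, a GTPase of mitochondrial ribosome assembly, rose from 15.7, 16.8 and 14.7 CPM in stressed WT to 22.1, 24.01 and 23.4 CPM in stressed KO (log2 0.56 ± 0.08, adjusted p = 0.00726). Nadsyn1, which makes NAD, rose (log2 1.27 ± 0.20, adjusted p = 0.0239), as did Cfap46, a protein of motile cilia (log2 1.41 ± 0.25, adjusted p = 0.0486). Cars, the cysteinyl-tRNA synthetase, fell from 47.6, 45.4 and 44.4 CPM to 32.3, 32.4 and 33.04 CPM (log2 -0.49 ± 0.07, adjusted p = 0.0092). Within each of these 4 genes the groups did not overlap. From 137.6 Mb to the end of the chromosome, a window drawn after these values were seen, 24 of 96 tested genes had an unadjusted p under 0.05 (25% of them, and 13.0% of all genes). Groups did not overlap for 32 of the 96 (33.3% of them, and 22.1% of all genes). Leaving out single libraries ended the calls of Mtg1 (without stressed KO 2), Cars (without stressed WT 1, or stressed KO 1 or 2) and Nadsyn1 (without any stressed WT library, or stressed KO 1 or 3), with adjusted p up to 0.0509, 0.057 and 0.15. Cfap46 passed only when unstressed WT 1, unstressed WT 3 or stressed KO 3 was the library left out (adjusted p up to 0.236). Without both stressed KO library 1 and stressed WT library 3 the adjusted p was 0.076 for Mtg1, 0.172 for Nadsyn1, 0.237 for Cfap46 and 0.109 for Cars.

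Around Cacna1g itself no other gene passed in edgeR's test. Within 1 Mb, 0 of 27 tested genes were called and 6 had an unadjusted p under 0.05 (22.2%, against 13.0% of all genes). Groups did not overlap for 8 of these 27 (22.1% over all genes). Within 2 Mb, 0 of 40 were called and 6 had an unadjusted p under 0.05 (15%). Within 5 Mb, 0 of 114 tested genes were called and 12 had an unadjusted p under 0.05 (10.5%, against 13.0% of all genes). Within 20 Mb it was 0 of 483, with 58 at an unadjusted p under 0.05 (12.0%). DESeq2, which called 299 genes in all, called 4 of the 114. The smallest p among these 114 was that of Samd14, which stood at 33.7, 28.1 and 32.7 CPM in WT and 53.7, 42.7 and 45.4 CPM in KO (log2 0.59 ± 0.13, adjusted p = 0.111).

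Genes that respond to glucocorticoids had mostly lower estimates in stressed KO, and 2 of them fell. Tsc22d3, the glucocorticoid-induced leucine zipper, stood at 44.8, 51.9 and 57.9 CPM in stressed WT libraries and 34.1, 32.4 and 34.1 CPM in stressed KO libraries. The 3 WT libraries were all above the 3 KO libraries, and the log2 fold change was -0.62 ± 0.11 (adjusted p = 0.0486). Without stress the levels were 33.4, 32.2 and 29.6 CPM in WT and 33.7, 39.8 and 30.2 CPM in KO, so that the stressed WT libraries were the highest of the 12. Klf9, a transcription factor that corticosterone induces, stood at 206, 238 and 235 CPM in stressed WT and 166, 169 and 163 CPM in stressed KO (log2 -0.45 ± 0.08, adjusted p = 0.0427). Its levels without stress were 168, 177 and 185 CPM in WT and 159.99, 175 and 183 CPM in KO, again below the stressed WT libraries. Both calls were near the threshold. Klf9 lost its call without any 1 of 10 of the 12 libraries, all but unstressed WT 3 and stressed WT 1. Tsc22d3 lost it without any 1 of 8, which were unstressed WT 1 or 2, stressed WT 2 or 3, unstressed KO 1 or any stressed KO library. The adjusted p reached 0.192 and 0.192 in these fits, and 0.211 and 0.211 without both stressed KO library 1 and stressed WT library 3.

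Of 26 glucocorticoid-responsive genes tested, 0 rose, 2 fell and 24 did not pass (0.0855% rose and 0.164% fell over all genes). Log2 fold changes were below 0 for 22 and above 0 for 4, with a median of -0.24 against -0.00 over all genes. Without stress the list's median was also below 0, at -0.16, so lower estimates were not particular to stressed mice. Its score, the mean of centred log2 CPM, was 0.11, 0.15 and 0.03 in unstressed WT and -0.18, -0.04 and -0.28 in unstressed KO. KO libraries were all below WT libraries for 13 of the 26 and all above for 0 (11.3% and 10.8% over all genes). The members next in order of p were Plin4, a lipid droplet protein (log2 -1.10 ± 0.26, adjusted p = 0.116), and Zbtb16, a transcription factor (log2 -0.67 ± 0.16, adjusted p = 0.116). Zbtb16 stood at 56.98, 59.8 and 62.3 CPM in stressed WT and 40.9, 39.1 and 32.02 CPM in stressed KO. Sgk1, a kinase, stood at 53.4, 57.2 and 66.9 CPM in WT and 50.1, 47.97 and 45.5 CPM in KO, with no overlap (log2 -0.31 ± 0.13, adjusted p = 0.347). Fkbp5, a chaperone of the glucocorticoid receptor, stood at 40.97, 35.1 and 33.6 and 33.4, 32.4 and 32.3 CPM, and the receptor gene Nr3c1 at 114, 145 and 135 and 133, 127 and 119.8 CPM. Neither passed (adjusted p = 0.449 and 0.915). The list's median lay between -0.28 and -0.20 without any 1 library, and was -0.21 without both stressed KO library 1 and stressed WT library 3. With scores of striatal, myelin and olfactory bulb markers in the model as 3 covariates, the median was -0.16. In that fit neither called member passed: Tsc22d3 had a log2 fold change of -0.27 ± 0.28 (adjusted p = 0.802) and Klf9 of -0.47 ± 0.18 (adjusted p = 0.465).

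**Figure D2:**
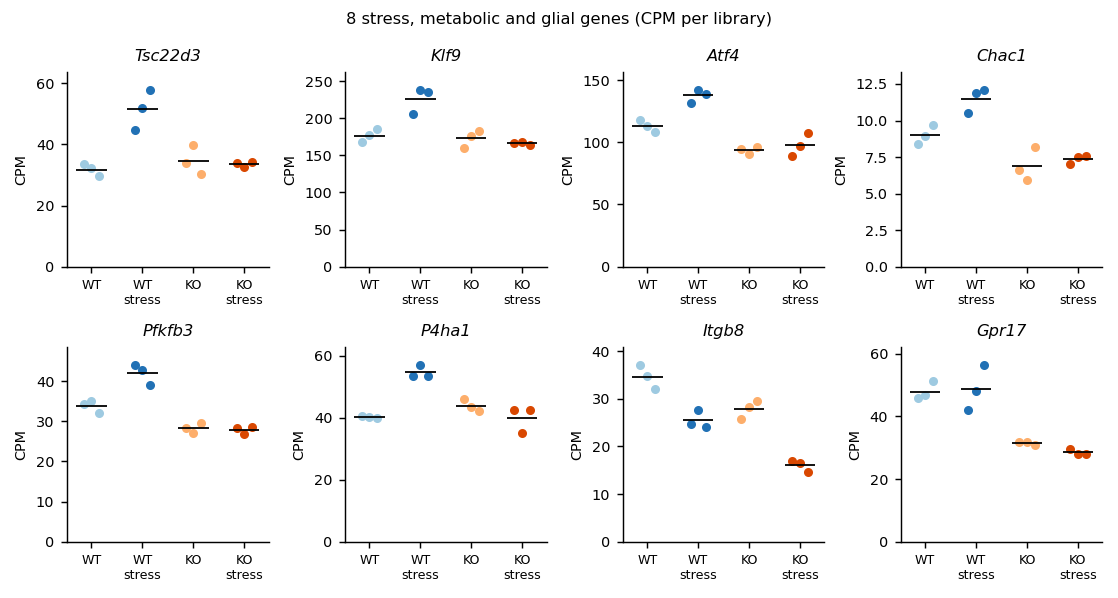
Normalised read counts (CPM, y axis) of 8 genes in the 12 libraries, by group (x axis), with 1 point per library and a bar at the group mean. For Tsc22d3 and Klf9 the stressed WT libraries lie above the other 9, and for Atf4 and Gpr17 both KO groups lie below both WT groups.

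Atf4, the transcription factor at the centre of the integrated stress response, stood at 132, 142 and 139 CPM in stressed WT and 89.2, 97.2 and 108 CPM in stressed KO. The groups did not overlap (log2 -0.49 ± 0.08, adjusted p = 0.0179). Chac1, a glutathione-degrading enzyme that ATF4 switches on, stood at 10.5, 11.9 and 12.1 CPM in WT and 7.00, 7.47 and 7.56 CPM in KO, and did not pass (log2 -0.65 ± 0.13, adjusted p = 0.0678). Of 29 genes of this response and of endoplasmic reticulum stress, 0 rose, 1 fell and 28 did not pass. Over all genes 0.0855% rose and 0.164% fell. Log2 fold changes were below 0 for 24 and above 0 for 5, with a median of -0.19, and KO libraries were all below WT libraries for 16 and all above for 1 (11.3% and 10.8% over all genes). After Atf4 and Chac1 came Mthfd2, a mitochondrial folate enzyme (log2 -0.48 ± 0.12, adjusted p = 0.133), Herpud1, which acts in protein degradation at the endoplasmic reticulum (log2 -0.28 ± 0.07, adjusted p = 0.133), and Sdf2l1, a chaperone cofactor (log2 -0.43 ± 0.12, adjusted p = 0.146). Cars, the tRNA synthetase of chromosome 7 above, is not in this list. Atf4 lost its call without any 1 of unstressed WT 2, stressed WT 2 or 3, or stressed KO 1 or 2 (adjusted p up to 0.0977), and without both stressed KO library 1 and stressed WT library 3 (0.171). The list's median stayed between -0.20 and -0.15 without any 1 library. In the unstressed libraries it was 0.05.

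ATF4 binds with C/EBP proteins to a composite element, the C/EBP-ATF response element, whose core was searched as TTGCATCA on both strands from 250 bases before to 50 after each start site (RefSeq, GRCm38.p6). It was found in 80 of 11461 promoters of tested genes (0.698%), in 4 of 26 promoters of this list (15.4%) and in 0 of 28 promoters of called genes. The promoters of the list's members with a match and a lower level in each KO library than in any WT library are shown, with the match in capitals.
Chac1 promoter, chr2:119350992-119351291, plus strand: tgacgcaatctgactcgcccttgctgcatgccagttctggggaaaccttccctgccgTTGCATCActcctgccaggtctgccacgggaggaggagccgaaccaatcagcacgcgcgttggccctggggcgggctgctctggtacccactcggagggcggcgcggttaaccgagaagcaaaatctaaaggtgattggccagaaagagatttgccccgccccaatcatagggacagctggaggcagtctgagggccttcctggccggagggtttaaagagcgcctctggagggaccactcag
Herpud1 promoter, chr8:94386179-94386478, plus strand: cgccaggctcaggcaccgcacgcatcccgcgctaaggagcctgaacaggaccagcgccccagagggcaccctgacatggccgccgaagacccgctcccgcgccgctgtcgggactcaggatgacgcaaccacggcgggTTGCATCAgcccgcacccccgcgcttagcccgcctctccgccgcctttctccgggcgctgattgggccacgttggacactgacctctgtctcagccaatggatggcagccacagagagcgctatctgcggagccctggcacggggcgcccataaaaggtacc
The first base of the match stood at -193 from the start site of Chac1 and at -112 from that of Herpud1. The other genes of the list with a match, Atf3, a transcription factor, and Slc7a11, the cystine transporter, had log2 fold changes of 0.16 ± 0.54 and 0.19 ± 0.20, with adjusted p of 0.939 and 0.733. Their groups overlapped, so the members with the match did not all lie on 1 side. A match describes the letters only.

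Pfkfb3, which makes the activator of phosphofructokinase and so raises glycolysis, stood at 44.1, 42.8 and 39.1 CPM in stressed WT and 28.3, 26.9 and 28.6 CPM in stressed KO. The groups did not overlap (log2 -0.59 ± 0.07, adjusted p = 0.003), and the call held without any 1 library. P4ha1, a prolyl hydroxylase of collagen, stood at 53.4, 57.2 and 53.4 CPM in WT and 42.4, 35.00 and 42.6 CPM in KO (log2 -0.45 ± 0.08, adjusted p = 0.0483). Gadd45a, a gene of growth arrest and DNA damage, stood at 7.32, 6.46 and 7.2 and 4.46, 4.29 and 4.48 CPM (log2 -0.67 ± 0.12, adjusted p = 0.0486). These last calls passed only without unstressed WT library 3 among the 12 fits that left out a library, with adjusted p up to 0.202 and 0.18 in the other 11.

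Gpr17, a receptor of oligodendrocyte precursors that are about to mature, stood at 42.1, 47.95 and 56.5 CPM in stressed WT and 29.6, 28.1 and 28.1 CPM in stressed KO (log2 -0.77 ± 0.10, adjusted p = 0.00376), with no overlap, and the call held without any 1 library. Of 10 precursor markers 1 fell, 0 rose and 9 did not pass (0.164% fell and 0.0855% rose over all genes). Their median was -0.22. Pdgfra, the growth factor receptor that defines these cells, stood at 47.97, 53.8 and 58.4 CPM in WT and 52.1, 52.4 and 52.4 CPM in KO, overlapping (log2 -0.03 ± 0.09, adjusted p = 0.928). Mature myelin markers had the same direction as Gpr17 between the groups: 25 of 25 had log2 fold changes below 0, with a median of -0.31, and 0 passed. Their sums were 2580 to 4217 CPM in stressed WT and 1758 to 3538 CPM in stressed KO. Stressed KO library 1 alone overlapped the WT range, while its Gpr17 level did not. The myelin median ran from -0.83 to -0.17 on leaving out 1 library, and was -0.67 without both stressed KO library 1 and stressed WT library 3. With the 3 marker scores as covariates, the myelin score among them, Gpr17 did not pass (log2 -0.49 ± 0.21, adjusted p = 0.5).

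Itgb8, the β8 integrin subunit, which with αv releases active TGF-β in the brain, stood at 24.6, 27.7 and 24.02 CPM in stressed WT and 17.03, 16.4 and 14.7 CPM in stressed KO (log2 -0.66 ± 0.09, adjusted p = 0.0099). Itgav, the αv subunit, stood at 122, 115 and 99.6 CPM in WT and 72.3, 91.9 and 91.1 CPM in KO and did not pass (log2 -0.40 ± 0.10, adjusted p = 0.118). Both genes had all KO libraries below all WT libraries. Of the 27 genes of Wnt and TGF-β signalling tested, 0 rose and 1, Itgb8, fell (0.0855% and 0.164% over all genes). The list's median was 0.01. Itgb8 lost its call without stressed WT 2, stressed KO 2 or stressed KO 3 (adjusted p up to 0.0607).

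Epha8, a receptor of the ephrin family that guides axons, rose from 3.38, 4.24 and 5.02 CPM in stressed WT to 10.03, 9.35 and 8.84 CPM in stressed KO (log2 1.16 ± 0.18, adjusted p = 0.0241). Col6a2, a chain of collagen VI, rose from 10.3, 11.3 and 13.5 CPM to 30.2, 20.9 and 18.7 CPM (log2 0.99 ± 0.17, adjusted p = 0.0355). Mcm6, a subunit of the replicative helicase, rose from 7.00, 8.26 and 8.22 CPM to 14.1, 11.9 and 12.8 CPM (log2 0.73 ± 0.11, adjusted p = 0.016). None of these 3 overlapped between groups. Tsr2, a chaperone in ribosome assembly, rose by the smallest amount of the called genes (log2 0.34 ± 0.06, adjusted p = 0.0463). Calls were lost for Epha8 without stressed WT 1 or 2, unstressed KO 1 or any stressed KO library, and for Mcm6 without any stressed WT library or stressed KO 1 or 3. Col6a2 kept its call only without unstressed WT 1 or 3 or stressed KO 3, and Tsr2 only without unstressed WT 3 or unstressed KO 2. The adjusted p reached 0.138 for Epha8, 0.0871 for Mcm6, 0.188 for Col6a2 and 0.18 for Tsr2 in these fits. Meningeal and fibroblast markers, whose cells make collagen VI, summed to 220.5, 222.9 and 386.2 CPM in stressed WT and 179.3, 460.2 and 442.7 CPM in stressed KO. Of these 21 markers 19 were above 0 and 2 below, with a median of 0.38. Col6a2 was highest in stressed KO library 1, where the meningeal sum was lowest of the 6. The part of meningeal content in the Col6a2 values was not tested.

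Luzp1, a protein of the cytoskeleton and centrosome, had a log2 fold change of -0.51 ± 0.07 (adjusted p = 0.0111). Osbpl3, an oxysterol-binding protein, had -0.55 ± 0.08 (adjusted p = 0.0178). Trhde, the ectoenzyme that degrades thyrotropin-releasing hormone, had -0.47 ± 0.08 (adjusted p = 0.0395), and Zdhhc2, a palmitoyltransferase of synaptic proteins, -0.37 ± 0.07 (adjusted p = 0.0486). Calls were lost for Luzp1 without stressed WT 1 or 2 or stressed KO 1 or 3, and for Osbpl3 without any 1 of the 6 stressed libraries. Trhde kept its call only without unstressed WT 3 or unstressed KO 2 or 3, and Zdhhc2 only without unstressed WT 3. The adjusted p reached 0.0696, 0.0931, 0.186 and 0.202 in these fits. Pakap, a read-through of Palm2 and Akap2 that anchors protein kinase A, stood at 27.4, 24.9 and 22.2 CPM in stressed WT and 13.9, 11.5 and 10.1 CPM in stressed KO (log2 -1.06 ± 0.13, adjusted p = 0.003). Its counts are shared with the genes it overlaps and are uncertain. The 6 gene models without a proper name among the 38, Gm3893 and Gm7120 included, were 4 lower and 2 higher. Of these, Gm17066 lost its call in 8 and 5930438M14Rik in 10 of the 12 fits that left out a library. Among the named genes, Wdfy1, Gpr17, Mtg1, Luzp1, Tsr2, Gadd45a and Zdhhc2 overlap another gene of the annotation, and whether the counting used strand is not given in the sources used here.

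Genes of ion channels and synapses had mostly lower estimates in stressed KO, and of these lists only GABA-A subunits had a called member beside Cacna1g. Of 52 potassium channel genes 0 passed, 39 were below 0 and 13 above, with a median of -0.13. KO libraries were all below WT libraries for 19 of them and all above for 1 (11.3% and 10.8% over all genes). Kcnh5, a voltage-gated channel of the EAG family, stood at 26.3, 19.7 and 14.1 CPM in stressed WT and 7.9, 10.1 and 6.21 CPM in stressed KO (log2 -1.30 ± 0.26, adjusted p = 0.0678). Kcnh7, of the related ERG family, stood at 39.6, 50.6 and 32.7 and 21.6, 23.6 and 13.7 CPM (log2 -1.05 ± 0.25, adjusted p = 0.116). In both, the highest KO library lay below the lowest WT library. Kcnk1, a leak channel, and Kcnj2, an inward rectifier, followed with -0.35 and -0.39 (adjusted p = 0.116 and 0.143).

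Of 12 sodium and HCN channel genes 0 passed and 10 were below 0, with a median of -0.21. Scn1a, the sodium channel of fast-spiking interneurons, stood at 164, 179 and 159 CPM in stressed WT and 106, 125 and 108 CPM in stressed KO (log2 -0.57 ± 0.14, adjusted p = 0.116). Of 6 high-voltage-activated calcium channel genes 0 passed, with a median of -0.03. Of 14 auxiliary calcium channel subunits 0 passed and 11 were below 0, with a median of -0.14, Cacnb4 having the smallest p (log2 -0.40 ± 0.10, adjusted p = 0.133). Of 35 calcium handling genes 0 passed and 25 were below 0. Among them Atp2b2, a pump that expels calcium across the plasma membrane, stood at 662, 635 and 666 CPM in WT and 417, 516 and 422 CPM in KO, with no overlap (log2 -0.53 ± 0.10, adjusted p = 0.0678).

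Of 20 postsynaptic scaffold genes 0 passed and 18 were below 0, with a median of -0.15. Shank2, a scaffold of excitatory synapses that also lies in the last stretch of chromosome 7, stood at 141, 127 and 149 CPM in stressed WT and 86.1, 104 and 77.2 CPM in stressed KO (log2 -0.64 ± 0.14, adjusted p = 0.0865). Of 31 genes of transmitter release 0 passed and 23 were below 0, with a median of -0.12. Vamp1, a vesicle protein of the release machinery, stood at 119, 113 and 129 CPM in WT and 71.1, 90.4 and 89.4 CPM in KO (log2 -0.53 ± 0.11, adjusted p = 0.079). For both genes the groups did not overlap. Of 24 glutamate receptor genes 0 passed, 14 were below 0 and the median was -0.04. Markers of excitatory neurons had a median of -0.06 and those of interneurons -0.05, with 0 called in either list. The score of excitatory markers, the mean of their log2 CPM centred over the 12 libraries, ran from -0.08 to 0.11 in stressed WT and from -0.06 to 0.10 in stressed KO. These ranges overlapped, and the part of neuron content in the channel values was not tested. Without stress the medians were -0.02 for potassium, 0.04 for sodium and HCN and -0.33 for high-voltage-activated calcium channels. They were -0.04 for auxiliary subunits, 0.14 for calcium handling and 0.19 for GABA-A subunits. For postsynaptic scaffold, transmitter release and glutamate receptor genes they were 0.00, 0.11 and 0.06.

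Immediate early genes, which neurons switch on with activity, went in both directions. Of 31 tested 0 passed, 23 were below 0 and 8 above, with a median of -0.23. Egr1, an activity-regulated transcription factor, stood at 269.8, 304 and 294 CPM in stressed WT and 83.9, 143 and 181 CPM in stressed KO (log2 -1.09 ± 0.26, adjusted p = 0.116). Fos stood at 18.7, 22.2 and 21.2 CPM in WT and 4.67, 11.04 and 17.9 CPM in KO (log2 -0.91 ± 0.35, adjusted p = 0.294). In both genes stressed KO library 1 was the lowest of the 6. Homer1, a scaffold with an activity-induced short form, and Ier5 had -0.50 and -0.47 (both adjusted p = 0.116). Jun was on the other side, at 54.8, 51.8 and 55.2 CPM in WT and 70.96, 69.4 and 72.2 CPM in KO, all KO libraries above all WT libraries (log2 0.39 ± 0.08, adjusted p = 0.079). The list's median was 0.03 without both stressed KO library 1 and stressed WT library 3, so its direction rested on those libraries. Of 22 circadian clock genes 0 passed, 11 were on either side of 0 and the median was -0.00. Dbp, a clock output gene, stood at 74.4, 76.5 and 87.4 CPM in WT and 98.2, 111 and 122 CPM in KO (log2 0.47 ± 0.11, adjusted p = 0.113), and Per2, a clock repressor, at 45.9, 42.1 and 39.6 and 32.7, 32.01 and 34.3 CPM (log2 -0.37 ± 0.14, adjusted p = 0.292). The time of day of tissue collection is not given in the sources used here.

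Genes of the interferon response and of antigen presentation had mostly higher estimates in stressed KO. Of 30 tested 0 passed, 27 were above 0 and 3 below, with a median of 0.38. Without stress the list's median was on the other side of 0, at -0.23. Its score was 0.29, 0.31 and -0.28 in unstressed WT and -0.07, -0.04 and -0.12 in unstressed KO. KO libraries were all above WT libraries for 11 and all below for 0 (10.8% and 11.3% over all genes). Ifit3, an antiviral effector, stood at 4.71, 4.45 and 6.38 CPM in stressed WT and 11.3, 9.45 and 9.61 CPM in stressed KO (log2 0.96 ± 0.29, adjusted p = 0.202). Ddx58, the viral RNA sensor RIG-I, stood at 3.7, 3.68 and 4.06 CPM in WT and 5.29, 5.54 and 5.06 CPM in KO (log2 0.47 ± 0.13, adjusted p = 0.167). Neither overlapped. Usp18, a negative regulator of interferon signalling, and Irf1, a transcription factor, had 0.91 and 0.54 (adjusted p = 0.181 and 0.212). Several of these genes were expressed at a few CPM. The list's median was 0.48 without both stressed KO library 1 and stressed WT library 3. Blood markers were also mostly above 0, with 4 of 5 tested. Over all 9 genes of the blood list, those with too few counts to test included, the sum was 63.6 to 106.9 CPM in stressed WT and 92.9 to 127.4 CPM in stressed KO. Hbb-bs was at 0 in all 3 stressed WT libraries. Microglia markers summed to 586.7 to 685.6 CPM in WT and 602.7 to 683.4 CPM in KO, with a median of 0.07. The part of blood or microglia in the interferon values was not tested.

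**Figure D3:**
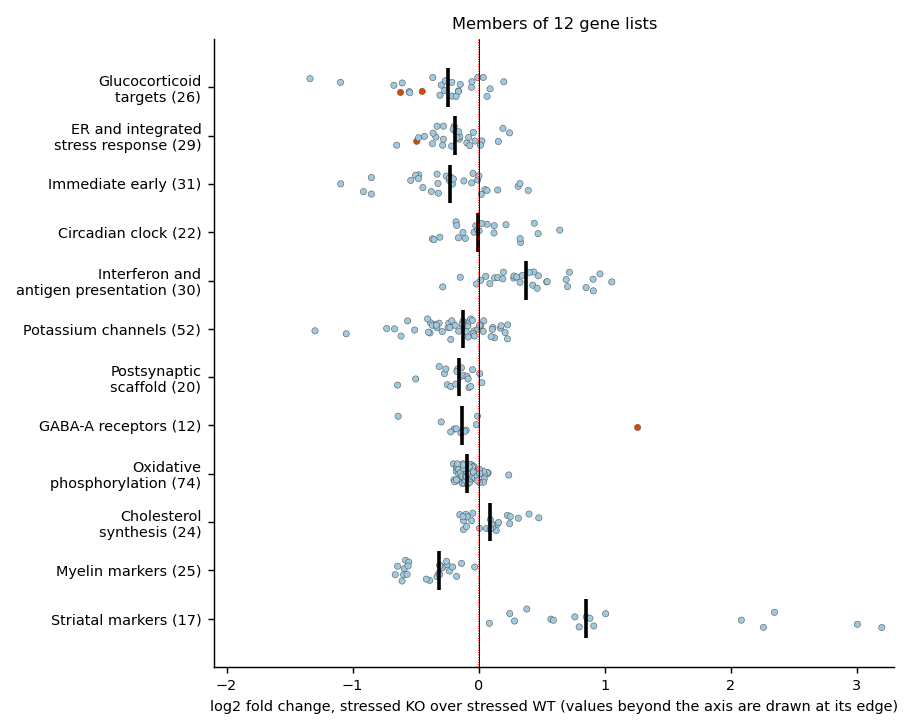
Log2 fold change of stressed KO over stressed WT (x axis) for each tested member of 12 gene lists (rows, number of members in brackets), with 1 point per gene, orange where the adjusted p was under 0.05, and a black bar at the median. Glucocorticoid targets (median -0.24) and stress response genes (median -0.19) lie mostly left of 0, interferon genes (median 0.38) mostly right, and Gabra2 stands apart from the other GABA-A subunits.

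Metabolic lists held no called gene. Of 74 nuclear genes of oxidative phosphorylation 63 were below 0, with a median of -0.09, Uqcrc1, a subunit of complex III, having the smallest p (log2 -0.17 ± 0.06, adjusted p = 0.274). Of 24 cholesterol synthesis genes 15 were above 0, with a median of 0.09. Without stress the medians were 0.36 for oxidative phosphorylation and 0.44 for cholesterol synthesis. Dhcr7, the last enzyme of that pathway and a gene of the distal chromosome 7 window, stood at 24.8, 28.6 and 30.4 CPM in stressed WT and 37.6, 32.1 and 34.6 CPM in stressed KO (log2 0.32 ± 0.09, adjusted p = 0.165). Its groups did not overlap.

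Markers of other tissues and cell types were set beside these results. All 17 tested striatal markers were above 0 in stressed KO, with a median of 0.86, 3 of them with all KO libraries above all WT libraries (10.8% over all genes). The median was 0.19 without both stressed KO library 1 and stressed WT library 3. Choroid plexus and ependyma markers, 4 tested, were all above 0. Over all 9 genes of that list, those with too few counts to test included, the sum was 5.27 to 6.96 CPM in stressed WT and 8.39 to 20.0 CPM in stressed KO. Ttr, the defining choroid plexus transcript, was at 0.139 CPM or less in all 6. Astrocyte markers were below 0 for 17 of 20, with a median of -0.15, and endothelial and mural markers above 0 for 15 of 20, with a median of 0.09. Without both stressed KO library 1 and stressed WT library 3 these last medians were 0.02 and 0.38. No marker but Gpr17 passed. With the striatal, myelin and olfactory bulb scores in the model as 3 covariates, 5 genes passed, and 4 of those were among the 38. They were Ccl21b, Gm3893, Tmem254b and Wdfy1.

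**Figure D4:**
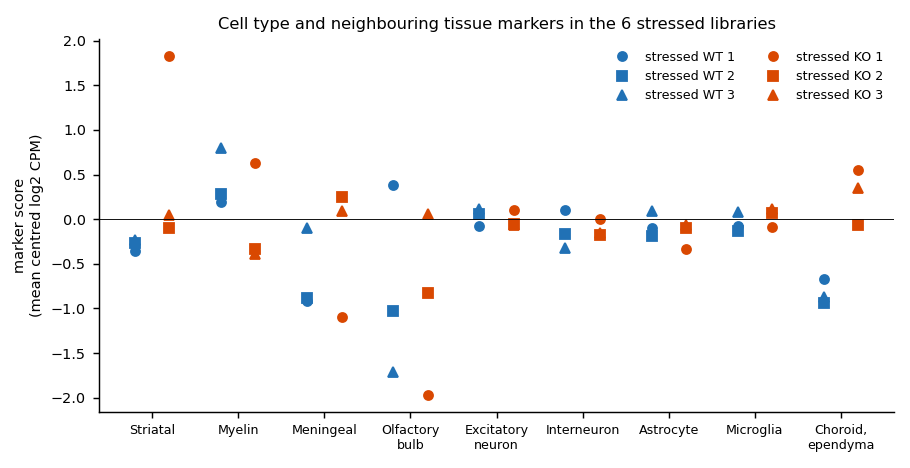
Marker score (y axis, mean over the list of log2 CPM centred over the 12 libraries) for 9 marker lists (x axis) in the 6 stressed libraries, with 1 symbol per library, blue for WT and orange for KO. Stressed KO library 1 stands alone on the striatal list at 1.82, and stressed WT library 3 and stressed KO library 1 are highest on the myelin list at 0.80 and 0.63.

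In the libraries without stress, which share no group mean with the difference above but enter the same estimate of spread, 34 of the 38 genes had the same sign and 4 the opposite sign, against 7377 of all 15199 genes (48.5%) with the same sign. The test passed 26 of the 38 there with the same sign and 0 with the opposite sign, against 23.2% of all genes passing in either direction. Unstressed groups did not overlap, with the same sign, for 30 of the 38, and did not overlap in either direction for 36.5% of all genes. Leaving out unstressed WT libraries 1 and 2 leaves unstressed WT library 3 alone in its group, so only effect sizes are given for that fit. There 33 of the 38 had the same sign, and Epha8 was at -0.01. With all libraries in the fit, of the 13 genes that rose all 13 were also higher in unstressed KO, and of the 25 that fell 21 were also lower. Cacna1g (-1.18), Wdfy1 (1.54), Gabra2 (1.19), Nnt (0.98), Ccl21b (-6.96) and Tmem254b (-1.78) passed with the same sign at the unstressed log2 fold changes given in brackets. Cars (-0.59) and Gpr17 (-0.61) also passed without stress. All of these kept their sign against unstressed WT library 3 alone. The log2 fold changes there were -1.16 for Cacna1g, 1.72 for Wdfy1, 1.22 for Gabra2 and 1.04 for Nnt. They were -7.40 for Ccl21b, -1.79 for Tmem254b, -0.66 for Cars and -0.71 for Gpr17. The 4 with the opposite sign were Pakap (0.26), P4ha1 (0.13), Zdhhc2 (0.14) and Tsc22d3 (0.12), and Klf9 (-0.03) and Trhde (-0.06) were near 0.

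**Figure D5:**
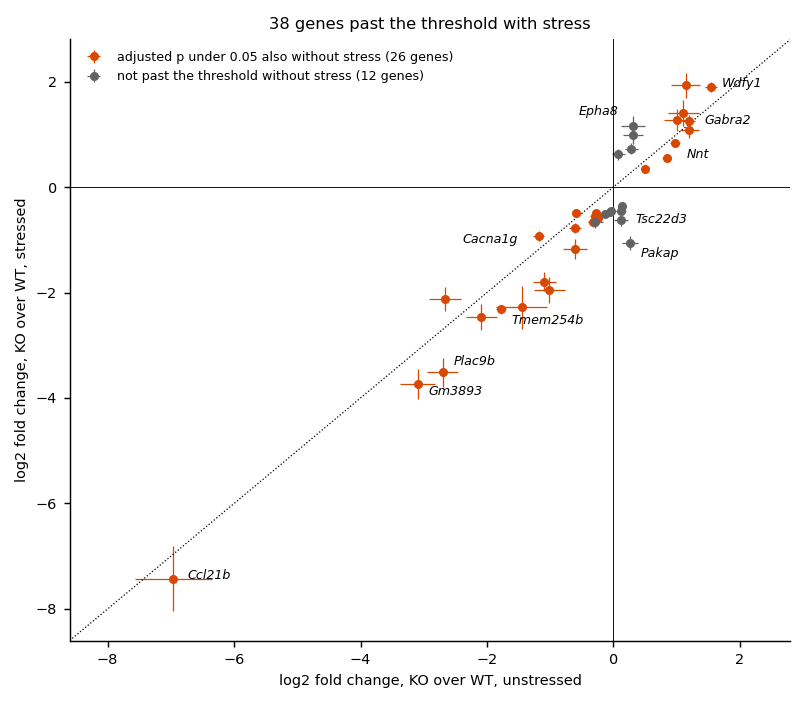
Log2 fold change of KO over WT in the stressed libraries (y axis) against the unstressed libraries (x axis) for the 38 genes called with stress, with SE bars, orange where the adjusted p without stress was also under 0.05. The dotted line marks equal differences, and 34 of the 38 genes have the same sign on both axes.

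Whether a genotype difference differed between stressed and unstressed mice was tested as an interaction. edgeR passed 0 genes, with a smallest adjusted p of 0.0506 and 4330 genes at an unadjusted p under 0.05 (28.5%), and DESeq2 passed 1844. With the 3 marker covariates 1225 genes (8.06%) had an unadjusted p under 0.05. Without unstressed WT libraries 1 and 2 only unstressed WT library 3 is left in its group, so no count is given for that fit. Among the 38 genes the unadjusted p of the interaction was under 0.05 for 20. The stressed difference, by which the 38 were chosen, is part of the interaction, so this count is no separate evidence. Pakap (interaction -1.32, adjusted p = 0.0506), Zdhhc2 (-0.51, 0.0506), P4ha1 (-0.58, 0.0506) and Tsc22d3 (-0.74, 0.0507) came nearest in edgeR among genes not called without stress. For Cacna1g the interaction was 0.25 (adjusted p = 0.209) and for Gabra2 0.07 (0.75). For Tsc22d3 and Klf9, a genotype difference that differs between stressed and unstressed mice was therefore not called by edgeR. Unstressed WT libraries 1 and 2, with their olfactory bulb markers, enter each of these interaction values.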

How the data were processed

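Strand-specific libraries of total mPFC RNA were made with a NEBNext Ultra II Directional kit, per the labels' protocols. Estimated counts for each gene symbol were deposited by the authors without normalisation, 1 column per library. The submitters' processing notes name mm10, RSEM 1.3.1, STAR 2.7.9a, Trim Galore 0.6.6 and, among the authors' tools, DESeq2 1.36.0. Not given in the sources used here are the annotation, any filter and the use of strand. Genes with decimals in at least 6 libraries share reads with similar or overlapping sequences and are uncertain; sums over copies use unrounded values.

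Estimated counts were rounded and filtered (edgeR filterByExpr, minimum count 10, minimum total 15), leaving 15199 genes; 4800 had no count and 4412 too few. All 12 libraries were fitted as 4 group means with TMM scaling and edgeR 4.0.16 quasi-likelihood tests in R 4.3.3, two-sided, with Benjamini-Hochberg adjustment over all genes and a threshold of 0.05. The fit left 8 residual degrees of freedom, so stressed and unstressed differences share 1 estimate of spread. Log2 CPM uses a prior count of 2. A count of 0 allows up to 3 counts, 0.102 to 0.192 CPM in the stressed libraries, for counting error only. The procedure was tested on simulated counts with the fitted spread and no differences in tissue make-up. It called 31 of 67 genes changed 1.5-fold, 48 of 67 changed 2-fold and 63 of 66 changed 4-fold, with 10 false calls. Differences of 1.5-fold were thus often missed. Replicates differed by more than sampling noise.

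The comparison and the gene lists were chosen with earlier results of these data known, so lists are described by counts and medians without a test. Named genes were the 12 largest rises and 12 largest falls among called genes with non-overlapping groups and a mean log2 CPM no lower than 0, the T-type genes, and per list the 4 members with the smallest p and those that passed. Luzp1, Osbpl3, Trhde, P4ha1, Zdhhc2, Plac9b, Cars, Gm3893, Gm7120, Slc17a7, Ttr, Hbb-bs, Pdgfra, Sgk1, Fkbp5, Nr3c1, Fos, Atf3, Slc7a11, Samd14, Sdf2l1, Gm17066 and 5930438M14Rik, the marker values of single libraries and the chromosome windows were picked after their values were seen. Some genes that the rule names are not reported here. Positions are from GENCODE mouse release 21 (14623 symbols, 96.2%, matched). Alternatives were DESeq2 1.42.0 or its size factors, no filter, only the compared groups, a replicate block, leaving out libraries, and marker scores as covariates.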

Additional observations from a re-analysis of the deposited data

Results flagged for a closer look

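For 11 of 177 genes examined singly (6.21%), and for 497 of all 15199 (3.27%), the stressed KO libraries all lay on 1 side of the stressed WT libraries and the unstressed KO libraries all on the opposite side of the unstressed WT libraries. Most of the 177 were chosen by a small p in the stressed comparison, so their higher share is no separate evidence. The difference of log2 fold changes, with stress minus without, was tested for the 11 as the interaction, and none passed edgeR's quasi-likelihood test after Benjamini-Hochberg adjustment (adjusted p between 0.0506 and 0.0755). Without unstressed WT libraries 1 and 2, which hold high olfactory bulb markers, Pvalb had -1.21, Pakap -1.20 and Clic6 3.69. All 11 differences kept their sign in that fit. The choice of the 11 fixed this beforehand, because unstressed WT library 3 also lay on the opposite side. Neither the kept sign nor the interaction p above is therefore separate support for these genes. With the 3 marker scores as covariates all 11 again kept their sign, and Clic6 had 1.41 and Cacng2 -0.14.

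Lower in KO with stress and higher without were Pakap, an anchor of protein kinase A (difference of log2 fold changes -1.32), P4ha1, a collagen hydroxylase (-0.58), Zdhhc2, a palmitoyltransferase (-0.51), and Pvalb, parvalbumin, which buffers calcium in fast-spiking interneurons (-1.64). Pvalb stood at 21.95, 28.8 and 30.1 CPM in stressed WT and 15.04, 19.8 and 21.7 CPM in stressed KO, and at 8.15, 9.41 and 14.3 CPM in unstressed WT and 20.4, 28.6 and 20.3 CPM in unstressed KO. The same pattern held for Rpl34, a ribosomal protein (-1.20), Cacng2, the AMPA receptor partner stargazin (-0.45), and Uqcrc1, a subunit of complex III (-0.29).

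Higher in KO with stress and lower without were Ddx58, the RNA sensor RIG-I (1.02), and Htr3a, a serotonin-gated channel of interneurons (0.78). Ddx58 stood at 6.02, 6.5 and 5.03 CPM in unstressed WT and 4.31, 3.79 and 3.94 CPM in unstressed KO, against 3.7, 3.68 and 4.06 and 5.29, 5.54 and 5.06 CPM with stress. Clic6 (4.67) and Kl (1.57), both abundant in choroid plexus, followed. Clic6 stood at 0.121, 0.343 and 0.239 CPM in stressed WT and 3.79, 0.627 and 0.961 CPM in stressed KO, and choroid plexus and ependyma markers summed to between 5.27 and 37.5 CPM over the 12 libraries.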

How the results depend on the processing

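The count of 38 genes called with stress was 37 with DESeq2 size factors, 40 without a filter, 41 with only the compared groups in the fit (26 shared with the 38) and 299 with DESeq2 (122 higher, 177 lower, the 38 among them). It was 82 without unstressed WT libraries 1 and 2, 19 without stressed KO library 1 and stressed WT library 3, and 5 with 3 marker scores as covariates. Leaving out 1 library at a time gave 19 (without stressed WT 2) to 116 (without unstressed WT 3). The difference without stress, 3529 genes, was 18 with only the compared groups and 15 with the covariates. It was 234 (without unstressed WT 2) to 5729 (without unstressed WT 3) with 1 library left out. No count is given without unstressed WT libraries 1 and 2, where unstressed WT 3 stands alone in its group. The interaction, 0 genes in edgeR with 4330 at an unadjusted p under 0.05, was 198 with DESeq2 size factors, 143 without a filter, 1844 with DESeq2, 3 without stressed KO library 1 and stressed WT library 3, 1 with the covariates, and 0 to 3851 (without unstressed WT 3) with 1 library left out. It was not run with only the compared groups, which are all 4. The cause of these shifts was not tested.

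The log2 fold change of Cacna1g lay between -1.03 and -0.85 over the 20 alternatives and missed the threshold with the covariates (-1.03, adjusted p = 0.304). The 4 genes Ccl21b, Gm3893, Tmem254b and Wdfy1 passed under all 20. No value reversed its direction as called.

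Replicate numbers did not pair the stressed libraries: deviations of same-numbered WT and KO libraries correlated at -0.124, -0.0656 and -0.00914. With a replicate block 27 genes passed with stress (25 of the 38), 3155 without stress and 0 in the interaction.

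The 3 libraries per group and the uneven tissue make-up limit what can be resolved: the shallowest library held 15469590 counts, and 21 of the 38 calls were lost without at least 1 library.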

Other observations

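Neuropeptide and receptor genes of the stress axis held no called member: of 26 tested 15 were above 0 and 11 below, with a median of 0.02. The members with the smallest p were Oprd1, the δ opioid receptor, at 30.2, 25.99 and 26.9 CPM in stressed WT and 20.5, 23.1 and 16.7 CPM in stressed KO (log2 -0.46 ± 0.15, adjusted p = 0.228), and Nts, neurotensin, at 0.563, 0.599 and 0.375 and 4.21, 0.771 and 0.64 CPM (log2 1.95 ± 0.65, adjusted p = 0.239). Nts was highest in stressed KO library 1, the library with the high striatal markers. Of 12 serotonin receptor genes 0 passed. Htr2a, an excitatory serotonin receptor, stood at 40.6, 43.9 and 38.05 CPM in WT and 21.9, 34.04 and 31.8 CPM in KO (log2 -0.49 ± 0.18, adjusted p = 0.281). Of 12 acetylcholine receptor genes 0 passed and 8 were below 0, with a median of -0.19.

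Hbb-bs, an adult β-globin, was at 0 in the 3 stressed WT libraries, where a count of 0 allows up to 0.102 to 0.128 CPM, and at 2.47, 3.42 and 4.55 CPM in the stressed KO libraries (adjusted p = 0.2). Without stress it stood at 2.44, 2.18 and 0 CPM in WT and 2.71, 0 and 0 CPM in KO, so it was at 0 in 1 WT and 2 KO libraries there.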
